A study of Rattus norvegicus with 4 samples.

Results

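MiR-122 is described here through its 2 mature arms, rno-miR-122-5p (MIMAT0000827) and rno-miR-122-3p (MIMAT0017116), in rat hepatocytes and liver sinusoidal endothelial cells. The arms were chosen by name, each had 1 spot per array, and they are 2 of the 761 rat miRNA probes on the array. The study measured miRNAs in primary hepatocytes and in primary liver sinusoidal endothelial cells (LSECs), isolated from livers of male Sprague-Dawley rats that were 10 weeks old and untreated. Each cell type had 2 samples, hybridised one to an array with a single Cy5 label, and no sample carried a treatment or a genetic change. Nothing in the labels ties the 2 samples of either cell type to different rats, so p-values measure only the spread between these samples, which may be technical. With 4 arrays in all, every value has limited precision.

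A miRNA hairpin is cut by Dicer into a duplex of a 5p and a 3p strand, and the strand that stays in an Argonaute protein guides it to messenger RNAs that pair with its seed. MiR-122-5p is the guide strand in hepatocytes, the parenchymal cells of the liver, where it is among the most abundant miRNAs and represses genes of iron and amino acid handling. The 3p arm is the partner strand, usually held at a far lower level. MiR-122 is released into blood when hepatocytes are injured and is used as a circulating marker of such injury.

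The sequences of both arms are shown because the arms have different seeds and are captured by different probes, with the seed (bases 2 to 8) in capitals, 5′ to 3′, from RefSeq (GRCr8).
rno-miR-122-5p: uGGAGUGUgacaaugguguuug
rno-miR-122-3p: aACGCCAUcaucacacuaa
The hairpin they come from follows, with the arms in capitals.
rno-mir-122: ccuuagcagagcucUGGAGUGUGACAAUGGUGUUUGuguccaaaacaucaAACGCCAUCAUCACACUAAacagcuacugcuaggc
RefSeq places this hairpin of 85 bases on the plus strand at chr18:61028817-61028901 (GRCr8), with the 5p arm at chr18:61028831-61028852 and the 3p arm at chr18:61028867-61028885. The gene overlaps the annotated span of a transcribed pseudogene, LOC134482951, and the nearest protein-coding genes on either side are Nedd4l and Alpk2. The predicted fold (RNAfold) had a minimum free energy of -42.6 kcal/mol and paired 15 bases of the 5p arm with bases of the 3p arm. The arms are 22 and 19 bases long, with 45.5% and 42.1% G or C, against a median of 47.8% over the 685 array miRNAs that have a RefSeq mature sequence. None of these other miRNAs shares the seed of either arm (0 for 5p and 0 for 3p).

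The opposite strand of the same locus also carries an annotated miRNA with a probe on the array, rno-miR-3591, shown with its seed in capitals.
rno-miR-3591: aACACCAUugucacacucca
All 20 of its bases match the reverse complement of the miR-122 hairpin, within the 5p arm, at chr18:61028831-61028850 on the minus strand. It was also the array miRNA closest in sequence to miR-122-3p, with 14 identical bases in an ungapped overlap of 19. The next closest to the 3p arm were miR-210-5p (12 bases) and miR-129-1-3p (11 bases). The closest to the 5p arm were miR-496-5p, miR-153-3p and miR-499-5p, with 13 identical bases each.

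MiR-122-5p was bright in hepatocytes and weak, but measurable, in LSECs. Its spot read 21459 and 38063 intensity units on hepatocyte arrays 1 and 2, against 179.5 and 149.7 units on LSEC arrays 1 and 2. After subtraction of the blank mean (79.5 and 92.1 for hepatocytes, 70.9 and 71.8 for LSECs), the 5p signal was 21379 and 37971 units in hepatocytes, against 108.6 and 77.9 units in LSECs. Every hepatocyte value lay above every LSEC value, and both LSEC values lay well over the detection limit of 2 SD above the blank mean, at 94.2 and 62.8 blank SDs. The 5p spot was the brightest of all 761 miRNA spots on both hepatocyte arrays (rank 1) and ranked 139 and 158 on the LSEC arrays. Probes differ in brightness per molecule, so these ranks describe spots and not the order of miRNA amounts.

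MiR-122-3p, the partner strand, followed the same pattern at a lower brightness. Its spot read 1583 and 3418 units in hepatocytes, against 83.7 and 83.9 units in LSECs. Above blanks this left 1504 and 3325 units for hepatocytes, against 12.8 and 12.2 units for LSECs. The LSEC signal was small yet stood 11.1 and 9.8 blank SDs above the blank mean, with 1 blank SD amounting to 9.01% and 10.2% of it. Both arms were thus detected on all 4 arrays, as were 482 of the 761 miRNA probes. Negative control spots averaged 83.7 and 100.2 units on the hepatocyte arrays, against 76.1 and 77.4 units on the LSEC arrays. These averages exceeded the detection limits of 83.0 and 97.4 units for hepatocytes and 73.2 and 74.2 units for LSECs. Detection therefore does not mean signal above the negative controls, although both arms read above their average on every array. The cell types did not overlap for either arm, but the share of all miRNAs without overlap was not counted.

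**Figure D1:**
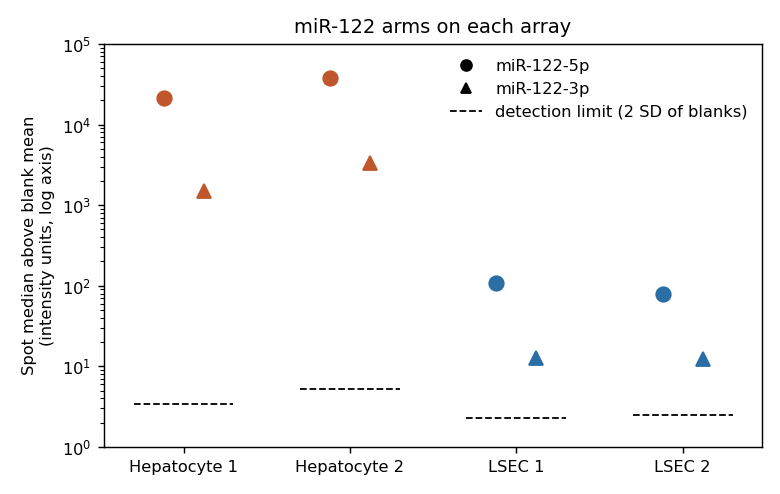
Spot median above the blank mean (intensity units, log axis) for miR-122-5p (circles) and miR-122-3p (triangles) on each of the 4 arrays, with hepatocytes in orange and LSECs in blue. Dashed lines mark the detection limit of 2 blank SDs. Both arms lie above the limit on every array, with 5p at 21379 and 37971 units in hepatocytes and at 108.6 and 77.9 units in LSECs.

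The arrays differed in overall brightness, so the size of the difference depended on how they were scaled to each other. Spike control spots averaged 18099 and 30556 units above blanks with hepatocyte RNA, against 12417 and 12327 units with LSEC RNA. The 5p signal of the hepatocyte arrays differed 1.78-fold (array 2 over array 1) and the 3p signal 2.21-fold, while their spikes differed 1.69-fold. Between the LSEC arrays the same ratios were 0.717 for 5p, 0.950 for 3p and 0.993 for the spikes. In the authors' deposited values, which they scaled per array, miR-122-5p stood at 51468 and 59303 in hepatocytes, against 168.7 and 109.9 in LSECs. The same values for miR-122-3p were 3621 and 5194 in hepatocytes, against 19.9 and 17.2 in LSECs. On that scale the mean of hepatocytes was 398-fold that of LSECs for 5p, with 305- to 540-fold over the 4 pairs of arrays, and 238-fold for 3p, with 182- to 302-fold. Relative to the spikes the folds were 161 for 5p (135 to 197 over the pairs) and 95.1 for 3p (80.6 to 110.3). In bulk samples such as these, fewer cells of a type and less RNA per cell cannot be told apart.

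The difference was fitted with limma over the 652 miRNAs that passed detection on both hepatocyte arrays or on both LSEC arrays, after normexp background correction (offset 50) and quantile normalization. As log2(intensity + 50), miR-122-5p had normalized values of 15.12 and 15.12 in hepatocytes, against 7.01 and 6.76 in LSECs. The hepatocyte minus LSEC difference was 8.23 ± 0.10 (SE, n = 2 arrays each; limma adjusted p = 1.61e-05), with a 95% confidence interval of 7.96 to 8.50. MiR-122-3p had 11.67 and 11.91 in hepatocytes, against 6.06 and 6.04 in LSECs, and differed by 5.74 ± 0.09 (limma adjusted p = 2.26e-05; interval 5.49 to 6.0). Of the 652 miRNAs, 240 were called at an adjusted p under 0.05 (36.8%), and 119 of them were higher in hepatocytes (18.3%). The count of 240 fell to 116 without LSEC array 1 and to 120 without LSEC array 2, where limma takes the lone array to vary like the pair. With 2 arrays against 2, an exact permutation test of 1 miRNA cannot go below p = 0.333, so the calls rest on the spread that limma pools over miRNAs.

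The 5p and 3p arms had the largest and the second largest hepatocyte excess of the 652 miRNAs. In absolute size 5p came second, after miR-126a-3p, an endothelial miRNA, at -8.38 ± 0.14. The identical hepatocyte values of 5p follow from its rank of 1 on both arrays, since quantile normalization gives equal ranks one value, so its error holds only LSEC spread and what limma pools. The 5p arm kept the largest hepatocyte excess in all 18 alternative settings, at 6.82 (spike scaling) to 9.43 (cyclic loess). The 3p arm kept the second largest in 17, at 4.53 to 7.87. It turned to -4.07 (adjusted p = 0.459) when the deposited background column was subtracted, because that column exceeded the spot itself in hepatocytes, at 2225 and 4322 units.

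**Figure D2:**
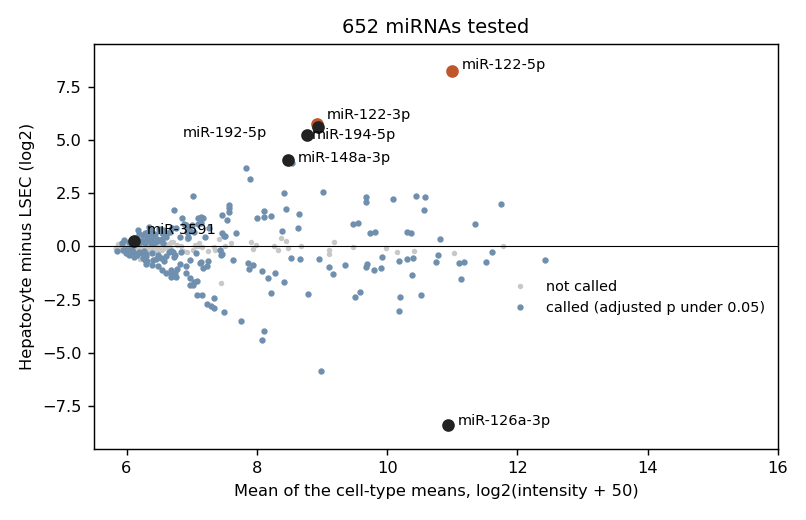
Hepatocyte minus LSEC difference (log2) against the mean of the cell-type means, log2(intensity + 50), for the 652 miRNAs tested; called miRNAs are blue-grey, the miR-122 arms orange, and other named miRNAs black. MiR-122-5p lies at 8.23 and miR-122-3p at 5.74 above the zero line, with miR-194-5p at 5.59, while miR-3591 from the opposite strand lies at 0.25.

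**Figure D3:**
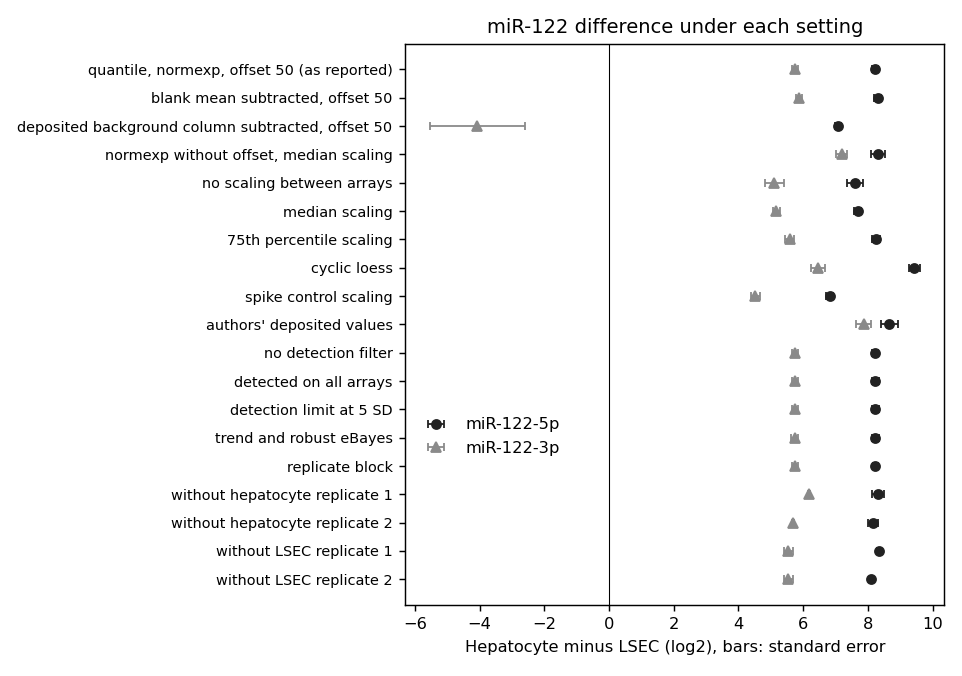
Hepatocyte minus LSEC difference (log2, bars: SE) of miR-122-5p (black circles) and miR-122-3p (grey triangles) under the reported setting and 18 alternatives. The 5p arm stays between 6.82 and 9.43, and the 3p arm is below 0 in 1 setting, at -4.07.

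The ratio of the arms within an array is not changed by multiplying an array by a constant, and probe brightness cancels when it is compared between cell types. Taken from the signal above blanks, the 5p signal was 14.2 and 11.4 times the 3p signal in hepatocytes, against 8.48 and 6.41 times in LSECs. The means were 12.8 ± 1.98 in hepatocytes and 7.45 ± 1.47 in LSECs (SD, n = 2 each), a 1.72-fold difference with no overlap. The share of all hairpins without overlap was not counted, and 54.9% of 213 hairpins were called in the limma fit of arm differences. Moving the LSEC 3p signal by 1 blank SD either way gave ratios of 7.78 to 9.32 on LSEC array 1 and 5.81 to 7.13 on LSEC array 2, all below both hepatocyte values. Negative control spots averaged 76.1 and 77.4 units on these arrays, closer than the blanks to the 3p spots of 83.7 and 83.9 units. With them as the floor, the LSEC ratios would rise to near the hepatocyte ratios, and the cell types would overlap. The 1.72-fold difference and the lack of overlap thus hold above blanks and depend on that floor. Ratios above the negative controls are not listed here.

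The fitted size of this arm difference depended on the offset of 50, which exceeds the LSEC 3p signal. With 50 units added to each arm the ratios became 13.8 and 11.3 in hepatocytes, against 2.53 and 2.06 in LSECs. In the normalized values, 5p minus 3p was 3.44 and 3.20 for hepatocytes, against 0.95 and 0.72 for LSECs, and limma over 213 hairpins gave a hepatocyte minus LSEC difference of 2.49 ± 0.12 (adjusted p = 1.44e-05). Calls were made for 54.9% of these hairpins, and for 23.9% toward a higher 5p minus 3p in hepatocytes. In the authors' values, which carry no offset, the difference was 0.79 ± 0.27 over 131 hairpins (interval 0.11 to 1.48), with no call (limma adjusted p = 0.0545). With normexp and no offset it was 1.13 ± 0.24 (adjusted p = 0.0102). The hepatocyte 5p spots held whole numbers, as did 17 and 24 spots in all on those arrays, and the 3p spots did not. The header's line between gains puts these 5p spots at 94760 and 140304 on the second gain, above the largest value of the scanner's number format, so the arms may have been read at different gains. The part of the gain in the ratio was not tested.

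**Figure D4:**
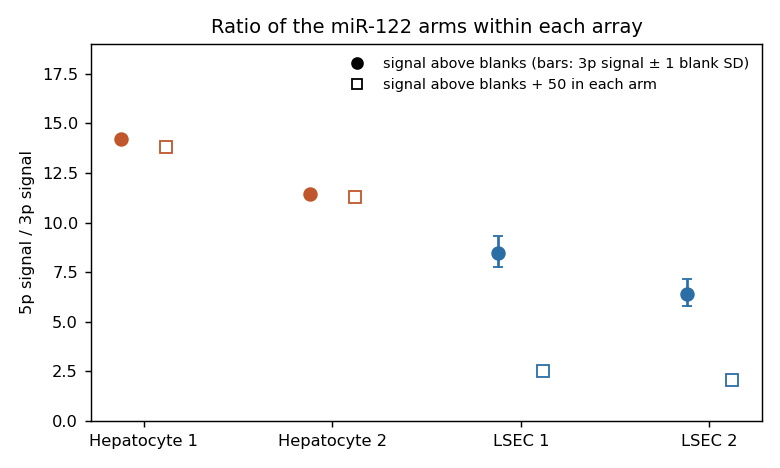
Ratio of the miR-122-5p to the miR-122-3p signal within each array, from the signal above blanks (filled circles, bars: 3p signal moved by 1 blank SD) and after adding 50 units to each arm (open squares), hepatocytes in orange and LSECs in blue. Filled circles lie at 14.2 and 11.4 in hepatocytes and 8.48 and 6.41 in LSECs, and open squares at 2.53 and 2.06 in LSECs.

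MiR-3591, from the opposite strand, was dim in both cell types. Its spot stood 9.36 and 20.5 units above blanks in hepatocytes, against 9.0 and 7.36 units in LSECs. The fitted difference was 0.25 ± 0.06 (limma adjusted p = 0.0403). The offset of 50 exceeds these signals and shrinks the difference, which was 0.86 with normexp and no offset (adjusted p = 0.00459) and 1.15 in the authors' values (adjusted p = 0.0105). Leaving out LSEC array 1 or LSEC array 2 ended the call as reported (adjusted p = 0.244 and 0.26), as did the replicate block (0.0752) and no scaling (0.463), and the difference was -0.041 under spike scaling. The neighbours in sequence of the 5p arm, miR-496-5p, miR-153-3p and miR-499-5p, stood 3.70 to 13.0 units above blanks in hepatocytes, against 4.02 to 8.52 units in LSECs, and none was called as reported (adjusted p = 0.392, 0.948 and 0.0736). On hepatocyte arrays 1 and 2 miR-153-3p read 3.70 and 4.67 units, the second below the detection limit, against 4.02 and 4.23 units in LSECs. Its spot was below the average negative control spot on every array. All 3 neighbours were called higher in hepatocytes with normexp and no offset (0.52, 0.52 and 0.63; adjusted p = 0.0396, 0.0306 and 0.0159) and with 75th percentile scaling (adjusted p = 0.0093, 0.0137 and 0.00369). MiR-499-5p was also called in the authors' values (0.80, adjusted p = 0.0109) and without hepatocyte array 2 (0.21, adjusted p = 0.0335). Of those of the 3p arm, miR-210-5p differed by 0.35 ± 0.04 (adjusted p = 0.00497) and miR-129-1-3p, detected on 1 of 2 hepatocyte arrays, by -0.34 ± 0.05 (adjusted p = 0.0117). The miR-210-5p call ended in the authors' values (0.16, adjusted p = 0.456) and turned to -0.45 (adjusted p = 0.000451) under spike scaling. Both calls ended without LSEC array 1 (adjusted p = 0.0656 and 0.11) or LSEC array 2 (0.0751 and 0.151).

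The miRNAs closest to the arms in pattern were led by miR-194-5p and miR-192-5p. Likeness was the Euclidean distance between centred normalized log2 values over the 4 arrays, which mostly reflects the size of the cell-type difference. The other arm was nearest to 5p (distance 2.50), and after it came miR-194-5p at 2.65, miR-192-5p at 3.02, miR-148a-3p at 4.20 and miR-101b-3p at 4.31. MiR-194-5p was nearest to 3p, at 0.25, with miR-192-5p at 0.55, miR-148a-3p at 1.71, miR-101b-3p at 1.83 and miR-31a-5p at 2.06. These distances include the offset, which exceeds the LSEC 3p signal. The authors' values carry no offset and gave differences of 8.66 for 5p and 7.87 for 3p. They gave 7.23 for miR-194-5p, 6.86 for miR-192-5p, 6.04 for miR-31a-5p, 4.59 for miR-148a-3p and 4.32 for miR-101b-3p. By size of difference alone, only miR-194-5p among those listed was then nearer to 3p than 5p was. Distances on that scale were not computed. As reported, the clustered miR-194-5p and miR-192-5p, enriched in liver and gut, differed by 5.59 ± 0.04 and 5.22 ± 0.05 (limma adjusted p = 1.21e-05 and 1.61e-05). Like miR-122-3p, miR-194-5p turned below 0 with the deposited background column subtracted, at -0.91 (adjusted p = 0.947), and miR-192-5p was 2.93 (adjusted p = 0.0464).

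Other hepatocyte miRNAs were set beside miR-122 from a list of 23 names, 22 of them on the array and all 22 tested. The list was chosen with earlier results of these data known, so its counts are descriptions. Without the miR-122 arms, 17 of 20 were called higher in hepatocytes and 0 in LSECs, against 18.3% of all miRNAs tested. Their differences ranged from -0.12 to 5.59 with a median of 1.19, beside a median of 0.00 over all 652. They included miR-148a-3p, a repressor of the low-density lipoprotein receptor in human cells, at 4.04 ± 0.05, miR-193a-3p at 2.51 ± 0.06 and miR-22-3p at 2.23 ± 0.04. Under spike scaling these were 2.46, 0.67 and 0.03, the last with no call (adjusted p = 0.659), and without scaling 3.14, 1.43 and 0.92. The 3 without a call were miR-365-5p, miR-215 and miR-193b-5p. Scaling moved the list median, which with both arms included was 1.40 as reported, 0.64 by the median, 0.59 without scaling and 0.12 under spike scaling. It also moved the counts: 19 of 22 were called higher in hepatocytes and 0 in LSECs as reported, 18 of 21 and 2 in the authors' values, 11 and 0 without scaling, and 10 and 5 under spike scaling.

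Among the 21 list members with a value on all arrays, the miR-122 arms had the lowest LSEC level relative to hepatocytes. In the authors' values the LSEC mean was 0.252% of the hepatocyte mean for 5p (0.185 to 0.328% over the 4 pairs of arrays) and 0.421% for 3p (0.331 to 0.550%). The pair ranges of the arms, which reuse the same 4 arrays, only just missed each other on this scale. Unscaled signals above blanks gave 0.205 to 0.508% for 5p and 0.366 to 0.851% for 3p, which overlapped. Relative to the spikes the ranges were 0.509 to 0.740% and 0.906 to 1.24%, without overlap. All percents here are from signal above blanks. With the negative controls as the floor, the 3p percent would fall far more than the 5p percent. Whether the arms differ in this respect thus depends on the floor. Next came miR-194-5p at 0.667%, miR-192-5p at 0.865% and miR-148a-3p at 4.15%, and the 19 other miRNAs had a median of 39.2%, with 2 above 100%. MiR-802-5p was detected on both hepatocyte arrays, at 270.7 and 267.6, and on neither LSEC array. Relative to the spikes the LSEC signal was 0.622% of the hepatocyte signal for 5p and 1.05% for 3p. Whether the miR-122 signal of the LSEC arrays came from LSECs or from hepatocyte RNA in these samples was not tested.

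**Figure D5:**
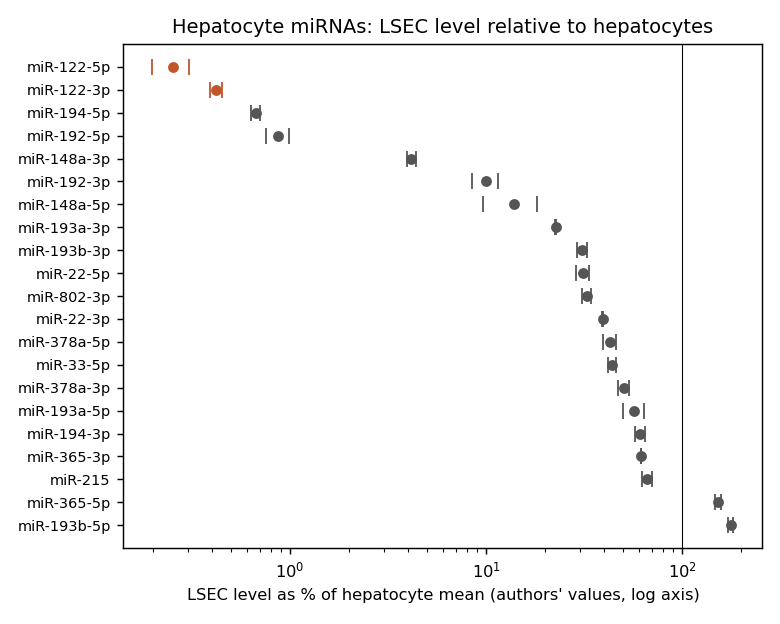
LSEC level as a percent of the hepatocyte mean (authors' values, log axis) for the 21 hepatocyte-list miRNAs with a value on all arrays; circles give the LSEC mean, ticks each LSEC array, and the vertical line 100%. The miR-122 arms (orange) have the lowest values, at 0.252% for 5p and 0.421% for 3p. The percents are from signal above blanks and depend on that floor.

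Markers of other cells were also read. Their lists were chosen with earlier results of these data known, so the counts describe the samples and are no independent check. Of the 3 endothelial markers, both arms of miR-126a were called higher in LSECs, and miR-126b was not tested. Their listed values summed to 59.3 and 103.8 in hepatocytes, against 76698 and 71405 in LSECs, on the authors' scale. The hepatocyte list without miR-122 summed to 14649 and 16372 in hepatocytes, against 2636 and 2573 in LSECs. All 6 leukocyte and Kupffer cell markers and all 5 stellate and mesenchymal markers were called higher in LSECs, against 18.6% of all miRNAs tested. Their sums were 106.7 and 90.8 in hepatocytes against 5606 and 6028 in LSECs for leukocytes, and 106.1 and 131.2 in hepatocytes against 2507 and 1966 in LSECs for mesenchymal cells, with no listed value in hepatocytes for miR-155-5p and miR-199a-3p. Of the tested epithelial and erythroid markers, 3 of 4 and 1 of 2 were called higher in hepatocytes, against 18.3% of all miRNAs tested. Those counts became 1 of 4 and 0 of 2 under spike scaling, with 1 erythroid marker higher in LSECs, and 0 of 4 and 0 of 2 without scaling. The part of these markers in the miR-122 levels was not tested.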

How the data were processed

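Per the labels' protocols, total RNA was labelled with Cy5 (Toray 3D-Gene kit) and hybridised to single-colour arrays. Per the file headers, each spot's intensity is the 635 nm median, merged from scans at 3 gains. The authors also deposited intensity values that were proportional to the spot median minus the blank mean within each array. Detection needed the blank mean plus 2 SD, after trimming 5% of blanks at each end. Spot medians were corrected by normexp (fitted on all 3200 spots, offset 50), quantile-normalized over 761 miRNA probes and fitted with limma 3.58.1 (R 4.3.3), with Benjamini-Hochberg over all miRNAs, called at 0.05. The fit was tested on data simulated from its own fitted spread, which does not test the background correction, the offset or the normalization. Alternative scalings multiplied the corrected intensities before the offset was added. Hairpins were folded with RNAfold 2.7.2. Named miRNAs were the arms, the 5 nearest in pattern, the 3 nearest in sequence, antisense or seed-sharing miRNAs, and the leading hepatocyte-list members. Members and lists were chosen with earlier results of these data known. Quality marks touched 0 miRNA spots and 0 spots stood at the upper limit. Same-numbered arrays of the cell types did not deviate together (r = 0.032 across miRNAs, a description).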

Additional observations from a re-analysis of the deposited data

Results flagged for a closer look

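The 5p minus 3p difference of miR-122 was larger in hepatocytes than in LSECs, by 2.49 (log2) in the limma test of the difference itself over 213 hairpins. Of those hairpins, 54.9% were called in either direction. On the authors' values, which carry no offset, it was 0.79 with no call (adjusted p = 0.0545). Both hepatocyte ratios of 5p to 3p above blanks (14.2 and 11.4) exceeded both LSEC ratios (8.48 and 6.41). Negative controls stood above the blanks on the LSEC arrays. With them as the floor, the LSEC ratios would rise to near the hepatocyte ratios, and the cell types would overlap.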

How the results depend on the processing

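The call of miR-122-5p held in all 18 alternatives (adjusted p 3.07e-08 to 0.00613) and those of miR-122-3p and of the arm difference in 17 each, the last being 0.79 with no call in the authors' values and 11.15 with the deposited background column subtracted. Of the 17 settings that kept the arm call, only normexp with no offset (1.13) lacked the offset of 50. The others share the offset on which the fitted size depends, so their number adds little support. With the background column subtracted, that column exceeded the hepatocyte 3p spots, so the value of 11.15 is not a usable size. Leaving out 1 array gave 8.11 to 8.33 for 5p, 5.54 to 6.18 for 3p and 2.14 to 2.79 for the arm difference. Subtracting the background column turned miR-122-3p to -4.07, miR-194-5p to -0.91, miR-31a-5p to -0.70, miR-22-3p to -0.55 and miR-210-5p to -0.18. Spike scaling turned miR-3591 to -0.041, miR-210-5p to -0.45, miR-496-5p to -0.10, miR-153-3p to -0.081 and miR-499-5p to -0.093. MiR-210-5p was -0.032 without scaling. In the other direction, miR-496-5p, miR-153-3p and miR-499-5p gained a call with normexp and no offset and with the 75th percentile. The miR-153-3p spot was below the average negative control spot on every array. MiR-153-3p was -7.6e-05 with cyclic loess, -0.016 without hepatocyte array 1, -0.0010 without LSEC array 1 and up to 0.024 without another array. The 240 calls became 15 with the background column, 376 with normexp and no offset, 445 with the 75th percentile, 456 with the spikes and 116 to 231 without 1 array. The 19 hepatocyte-list calls became 4 with the background column, 11 without scaling, 10 with the spikes and 15 to 20 without 1 array. Calls toward hepatocytes and toward LSECs, 119 and 121 as reported, were 111 and 196 in the authors' values, 27 and 150 without scaling, 108 and 221 by the median, 308 and 137 by the 75th percentile and 21 and 435 by the spikes. The spikes moved the median of all miRNAs by -0.27, the authors' values by -0.28 and the 75th percentile by 0.15. Same-numbered arrays were not shown to be paired, and the replicate block left the arms at 8.23 and 5.74 (adjusted p = 0.000211 and 0.0003) and gave 200 calls. The cause of these shifts was not tested. The LSEC 3p signal of 12.8 and 12.2 units limits any arm ratio there.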

Other observations

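The spot beside miR-122-5p in its row belonged to miR-137-3p and was singled out after its values were seen. It read 22.6 and 28.1 units above blanks on the hepatocyte arrays, where its neighbour was the brightest miRNA spot, against 0.026 and 0.20 units on the LSEC arrays, where it was not above the detection limit. The neighbour on the other side, miR-107-3p, read 117.8 and 169.8 units in hepatocytes, against 505.1 and 477.3 units in LSECs. The part of the 5p spot in the miR-137-3p signal was not tested.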
